A study of Mus musculus with 6 samples.

Results

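The genes described here are the FOXO transcription factors, the insulin receptor and its adaptors, and the FOXO target Depp1 with 3 further stress and nutrient response genes, in the kidney cortex of mice with and without the C3a receptor. The members were the 10 genes Depp1 (printed on the array under its older name 8430408G22Rik), Foxo1, Foxo3, Foxo4, Insr, Irs1, Irs2, Sesn1, Cited2 and Txnip, taken by gene name with all of their probes. They are 10 of 37325 distinct gene names on the array and had 17 of its 56605 distinct transcript probes. The set was chosen by a measured value of these arrays, the genotype difference of Depp1, which was among the largest rises, so every genotype difference of a member below is a description and carries no test. Tests are given only for lists of other genes of the pathway. Those lists were also chosen with earlier results of these data known, so their counts are not independent of these data.

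RNA from the renal cortex of male C57BL/6 mice was hybridised to 6 one-colour Agilent arrays. The WT control group had 3 samples, and the C3aR-/- control group had 3 samples from mice lacking C3ar1, the gene of the receptor for the complement fragment C3a. Both groups were controls without diabetes. From 8 weeks of age they were fed a normal chow in which fat supplied 10% of calories, later received injections of vehicle in place of streptozotocin, and were killed 20 weeks after induction. The diabetic arm, on a high fat diet with streptozotocin, was not analysed here. The sources used here do not give the deleted part of C3ar1, the number of backcrosses or how many animals the samples came from. The errors and p-values therefore measure the spread between these samples, which may be technical.

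Insulin binds its receptor, which phosphorylates the adaptors IRS1 and IRS2 and thereby activates PI3K and the kinase AKT. AKT phosphorylates FOXO proteins and keeps them out of the nucleus. When insulin signalling is low, FOXO proteins enter the nucleus and raise genes of gluconeogenesis, cell cycle arrest, autophagy and stress defence, and also Irs2 and Insr, which makes the pathway more sensitive. In the kidney cortex the proximal tubule makes glucose during fasting and carries insulin receptors.

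On each array, 33530 to 35147 of 59305 transcript spots were well above background, and no spot was saturated. C3aR-/- replicate 1 stood apart, with 145 spots flagged as non-uniform against 2 to 8 on the other arrays. The 3 WT arrays lay on 1 slide and the 3 C3aR-/- arrays on another, so genotype and slide cannot be told apart in any value below. The single C3ar1 probe exceeded background clearly on 1 array of 6 and gives no check of the genotype labels. Levels are on the log2 scale, relative to the 75th percentile of each array, and are given as mean ± SD (n = 3). A difference is the C3aR-/- mean minus the WT mean on that log2 scale. Levels of different probes cannot be set against each other. In these bulk samples, fewer cells of a type and less RNA per cell cannot be told apart.

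The stretches before the start sites of Depp1, Irs2 and Txnip are shown because these genes had, in turn, the largest difference of the set, the largest among the insulin signalling members, and an exact FOXO element near the start. They are the 250 bases before the RefSeq start site on build GRCm38.p6, written 5′ to 3′ on the gene's strand. Capitals mark the FOXO element GTAAACA, the insulin response element core CAAAACA and the E-box CACGTG, each searched on both strands.
Depp1 (chr6:116650434-116650683, plus strand): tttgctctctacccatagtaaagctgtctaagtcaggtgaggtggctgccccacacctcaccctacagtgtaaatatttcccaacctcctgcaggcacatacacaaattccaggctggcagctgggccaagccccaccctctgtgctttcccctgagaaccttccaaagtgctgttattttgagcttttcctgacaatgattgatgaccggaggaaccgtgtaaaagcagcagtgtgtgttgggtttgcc
Irs2 (chr8:11008930-11009179, minus strand): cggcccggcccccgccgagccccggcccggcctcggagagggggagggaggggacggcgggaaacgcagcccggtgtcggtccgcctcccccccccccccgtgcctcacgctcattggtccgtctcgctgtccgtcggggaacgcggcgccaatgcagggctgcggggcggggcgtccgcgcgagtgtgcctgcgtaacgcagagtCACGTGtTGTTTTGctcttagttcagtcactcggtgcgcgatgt
Txnip (chr3:96557707-96557956, plus strand): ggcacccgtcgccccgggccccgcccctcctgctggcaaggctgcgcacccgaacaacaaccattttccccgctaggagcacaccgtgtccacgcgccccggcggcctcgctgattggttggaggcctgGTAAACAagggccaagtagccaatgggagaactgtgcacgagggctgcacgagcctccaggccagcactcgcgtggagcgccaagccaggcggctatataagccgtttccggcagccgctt

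RefSeq windows of 300 bases, from 250 before to 50 after a start site, were found for 8 of the 10 members (9 windows, since Sesn1 has a pair of start sites). A FOXO element was present in 2 of the 9 windows, those of Txnip and of 1 Sesn1 start site, against 3.65% of all 32851 windows. The insulin response element core was present in 2 of 9, those of Irs1 and Irs2, against 6.28% of all windows. An E-box was present in 3 of 9, those of Irs1, Irs2 and Cited2, against 7.15%. In Irs2 the E-box and the insulin response element core lay 44 and 37 bases before the start site. The Depp1 window held none of the 3 sequences, which says only that these letters are not in this window.

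Of the 17 member probes, 14 passed the filter for the fit, which asked that all 3 arrays of one genotype or the other show the probe well above background. The 14 covered 9 genes, and 13 of them were well above background on all 6 arrays. The other, an Insr probe, passed through its C3aR-/- arrays alone. All 14 tested probes had a positive difference, from 0.05 to 2.92 with a median of 0.40, and the median over all 30930 tested probes was 0.03. In limma's fit over all probes, 5 of the 14 had an adjusted p under 0.05, all higher in C3aR-/- cortex, where 11.7% of all probes had one (6.18% higher and 5.49% lower), and in 8 of the 14 the genotypes did not overlap, where 39.6% of all probes did not. The contrast that chose the set gave these counts, and nothing is read from them.

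**Figure D1:**
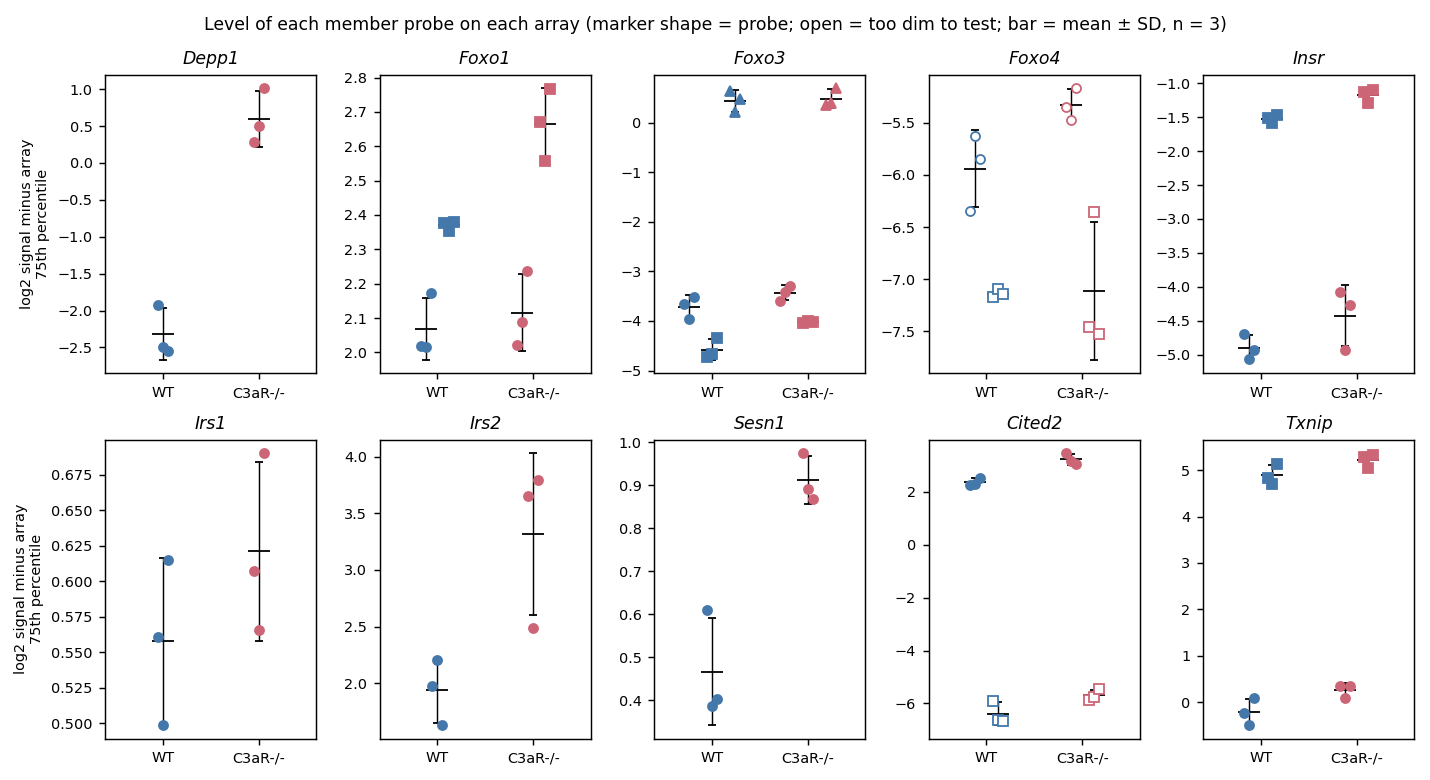
Level of every member probe on every array, as log2 signal minus the array's 75th percentile (vertical axis), for WT (blue) and C3aR-/- (red) cortex; marker shapes tell the probes of a gene apart, open markers are the 3 probes too dim to test, and bars are mean ± SD of 3 arrays. Depp1 is separated by 2.20 log2 units between the nearest arrays of the genotypes, while the Irs1 arrays of the genotypes overlap.

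Depp1, a small protein gene that FOXO factors induce and that fasting and progesterone raise in other tissues, had the largest difference of the set. Its probe (A_51_P316935; mm9, chromosome 6, 116602564 to 116602623, plus strand) read -1.92, -2.50 and -2.55 on the WT arrays, in the order of replicates 1 to 3 used throughout. The C3aR-/- arrays read 0.28, 0.50 and 1.01. Every C3aR-/- array was above every WT array, with 2.20 log2 units between the nearest pair. The WT mean was -2.32 ± 0.35 (SD, n = 3) and the C3aR-/- mean 0.60 ± 0.38 (SD, n = 3). They differed by 2.92 (SE 0.25), which is 7.56-fold. It was the 6th largest rise among the 30930 tested probes, just below Igfbp1 at 2.97. The difference lay between 2.40 and 3.12 under 15 other settings, with the lowest value in the deposited log2 table.

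Depp1 and C3ar1 lie on the same chromosome, with 6.20 Mb between their probes on mm9. Of 39 other tested probes within 1 Mb of the Depp1 probe, 2 were called higher and 2 lower (limma, adjusted p under 0.05), which is 10.3% against 11.7% of all probes. The differences in that window ran from -0.65 to 1.20. The gene Rassf4, picked with its value known, rose by 1.09 (SE 0.23, limma adjusted p = 0.0356).

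The FOXO factors themselves differed little, and the answer depended on the probe. Foxo1, the main insulin-regulated FOXO factor of gluconeogenic tissue, had one probe (A_52_P453884; chromosome 3, 52153289 to 52153348) at 2.02, 2.01 and 2.17 in WT and 2.02, 2.09 and 2.24 in C3aR-/- cortex, with overlapping genotypes and a difference of 0.05 (SE 0.09). Without C3aR-/- replicate 3 that difference was -0.01. Its other probe (A_55_P2798990; chromosome 3, 52150946 to 52151005) read 2.38, 2.35 and 2.38 in WT and 2.67, 2.56 and 2.77 in C3aR-/- cortex. There the genotypes did not overlap, and the difference was 0.29 (SE 0.07), or 0.48 with the normexp background correction.

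Foxo3, which acts in cell survival and stress resistance, had 3 probes that spread from 0.05 to 0.56. The brightest (A_65_P08314; chromosome 10, 41901997 to 41902056, minus strand, position 6438 of its target transcript in the array file) read 0.63, 0.21 and 0.48 in WT and 0.35, 0.41 and 0.70 in C3aR-/- cortex, with overlapping genotypes. Its difference of 0.05 (SE 0.14) was negative, at -0.07 and -0.06, without WT replicate 2 and without C3aR-/- replicate 3. The dimmest (A_55_P2735425; chromosome 10, 41994961 to 41995020, position 544) read -4.73, -4.66 and -4.34 in WT and -4.03, -4.01 and -4.01 in C3aR-/- cortex, which did not overlap and gave 0.56 (SE 0.11). The remaining probe (A_55_P2506540; chromosome 10, 41916349 to 41916408, position 2242) gave 0.28 (SE 0.14) with overlapping genotypes. With the normexp background correction these last 2 probes were at 0.12 and 0.08.

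The sequences of the 2 dim Foxo3 probes show how unlike they are as hybridisation targets. The G and C content was 70.0% in the probe at position 544 and 45.0% in the probe at position 2242, and 35.0% in the brightest. Both are printed 5′ to 3′ in the sense of the transcript, as the array files give them, and no base is singled out by a capital.
Foxo3, position 544: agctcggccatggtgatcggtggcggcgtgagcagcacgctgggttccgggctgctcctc
Foxo3, position 2242: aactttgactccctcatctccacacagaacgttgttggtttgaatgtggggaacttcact

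Foxo4, the X-linked member of the family, could not be followed. Its probes (A_51_P200875 and A_55_P2113031) were well above background on 1 of 6 and 0 of 6 arrays. The processed signal of the first was 8.42, 13.4 and 11.9 in WT and 17.5, 18.6 and 20.4 in C3aR-/- cortex. No fold is given, since both genotypes lay near the limit of detection.

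Among the insulin signalling members, the receptor and Irs2 read higher in C3aR-/- cortex and Irs1 did not separate. Insr, the insulin receptor, read -1.51, -1.59 and -1.47 in WT and -1.13, -1.29 and -1.10 in C3aR-/- cortex by its brighter probe (A_55_P2173927; chromosome 8, 3155472 to 3155531, minus strand), a difference of 0.35 (SE 0.08) without overlap. Its dimmer probe (A_52_P6490; chromosome 8, 3159473 to 3159532) gave 0.47 (SE 0.23) with overlapping genotypes, and C3aR-/- replicate 2, at -4.93, lay among the WT arrays. With normexp this probe was at 0.04.

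Irs1, an adaptor that couples the receptor to PI3K (A_52_P175242; chromosome 1, 82229692 to 82229751, minus strand), read 0.56, 0.50 and 0.62 in WT and 0.61, 0.57 and 0.69 in C3aR-/- cortex. The genotypes overlapped, and the difference was 0.06 (SE 0.07).

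Irs2, the adaptor whose gene is itself a FOXO target, had the second largest difference of the set and the widest spread (A_66_P102260; chromosome 8, 11004490 to 11004549, minus strand). It read 1.97, 2.20 and 1.63 in WT and 3.65, 2.49 and 3.80 in C3aR-/- cortex. C3aR-/- replicates 1 and 3 were far above WT, and replicate 2 was only 0.29 above the highest WT array. The WT mean was 1.93 ± 0.29 (SD, n = 3) and the C3aR-/- mean 3.31 ± 0.72 (SD, n = 3). They differed by 1.38 (SE 0.37), which is 2.60-fold. It was 1.79 without C3aR-/- replicate 2, the highest value of 15 other settings, and 1.12 in the lowest.

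**Figure D2:**
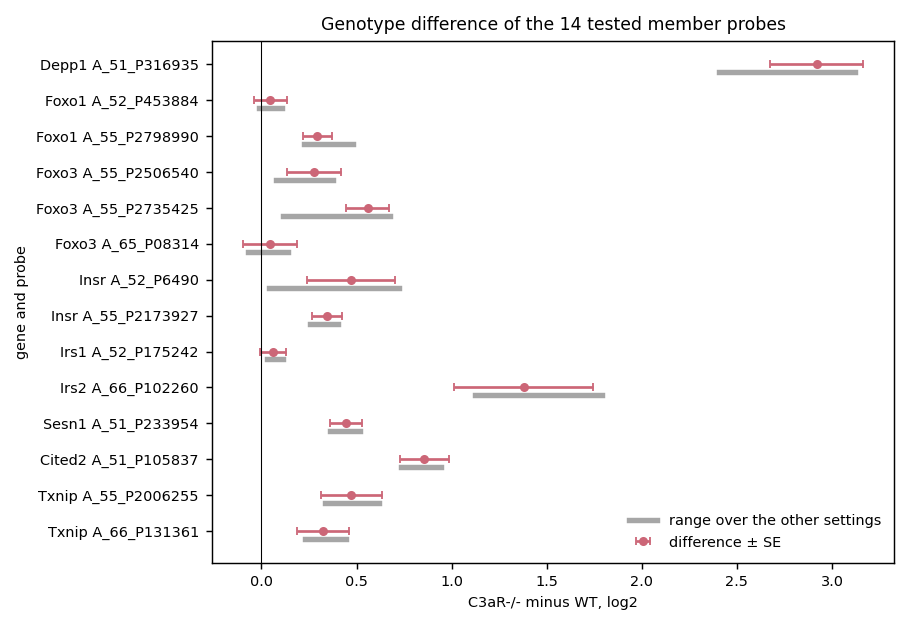
Genotype difference of the 14 tested member probes in log2 units (horizontal axis, C3aR-/- minus WT), with points and bars for the difference ± SE and grey bars for the range over the other settings. Depp1 at 2.92 and Irs2 at 1.38 lie apart from the other 12 probes, which run from 0.05 to 0.86.

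The 3 further response genes all read higher in C3aR-/- cortex. Cited2, a transcriptional co-regulator that competes with HIF factors for CBP and p300, had a detected probe (A_51_P105837; chromosome 10, 17445203 to 17445262) at 2.28, 2.30 and 2.55 in WT and 3.46, 3.18 and 3.06 in C3aR-/- cortex. The genotypes did not overlap, with a difference of 0.86 (SE 0.13) or 1.81-fold. Its other probe (A_55_P2740081) was well above background on 0 of 6 arrays.

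Sesn1, a sestrin that restrains mTORC1 when amino acids are scarce and a target of p53 and FOXO factors (A_51_P233954; chromosome 10, 41628000 to 41628059), read 0.61, 0.39 and 0.40 in WT and 0.97, 0.89 and 0.87 in C3aR-/- cortex. The genotypes did not overlap, and the difference was 0.44 (SE 0.08).

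Txnip, which binds thioredoxin and limits glucose uptake and is raised by glucose, had its brighter probe (A_66_P131361; chromosome 3, 96365340 to 96365399) at 4.83, 4.71 and 5.14 in WT and 5.27, 5.05 and 5.32 in C3aR-/- cortex. The genotypes overlapped through C3aR-/- replicate 2, and the difference was 0.32 (SE 0.14). The other probe (A_55_P2006255; chromosome 3, 96364206 to 96364265) gave 0.47 (SE 0.16) with 0.01 between the nearest arrays.

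The genes whose level over the 6 arrays most resembled Depp1 were found by the root mean square difference of mean-centred log2 levels, among 19408 other probes of known genes. The nearest was Igfbp1, a secreted binder of insulin-like growth factors, at 0.35, followed by the clock repressor Nr1d1 at 0.49, the vitamin D activating enzyme gene Cyp27b1 at 0.65, the phosphate and urate transporter gene Slc17a4 at 0.71 and the phospholipase gene Pla2g2e at 0.73. All 5 were high on the same 3 arrays, which share genotype and slide.

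Genes outside the set were tested by limma over all 30930 probes, and a gene was called by its brightest probe. By that rule 12.3% of 20553 genes were called, 5.96% higher and 6.37% lower, and the median difference was 0.02. Of 35 FOXO target genes, 34 were tested, 11 were called higher (32.4%), 0 lower and 23 did not pass, with a median of 0.28. The p behind this count was adjusted over all probes. The count was between 1 and 7 without any 1 array: 3, 2 and 3 without WT replicates 1 to 3, and 3, 7 and 1 without C3aR-/- replicates 1 to 3. The calls over all probes were also fewer, 957, 748 and 1308 without WT replicates 1 to 3 and 1894, 1113 and 649 without C3aR-/- replicates 1 to 3, against 3612 with all 6 arrays. The median of the list kept its sign throughout, between 0.21 and 0.33 over 15 other settings. A positive difference, passing or not, was found in 22 of the 34 genes by brightest probe. Over all tested probes the share was 54.7%, and the share over all genes was not counted. The list was chosen with earlier results of these data known.

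**Figure D3:**
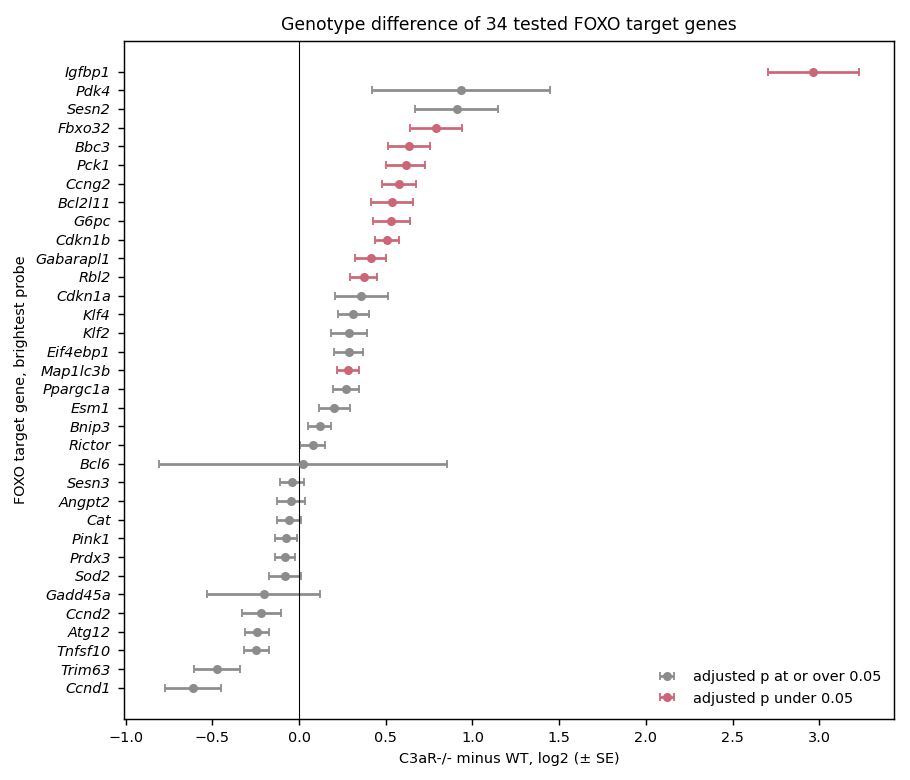
Genotype difference of 34 tested FOXO target genes by brightest probe (horizontal axis, C3aR-/- minus WT in log2 units, bars ± SE); red points had an adjusted p under 0.05. All 11 red points lie above 0, from 0.28 for Map1lc3b to 2.97 for Igfbp1.

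Igfbp1, the FOXO target with the largest difference, read -0.36, -0.78 and -0.77 in WT and 2.67, 1.76 and 2.56 in C3aR-/- cortex and rose by 2.97 (SE 0.26, adjusted p = 0.00614). It was the one of the 11 that was called without each array in turn. Cdkn1b, the cell cycle inhibitor p27, rose by 0.51 (SE 0.07, adjusted p = 0.0149), and a further probe for it read 0.62. Ccng2, an unusual cyclin that accompanies cell cycle arrest, rose by 0.57 (SE 0.10, adjusted p = 0.0236), and a further probe for it read 1.19. Pck1, the gluconeogenic enzyme gene, rose by 0.61 (SE 0.11, adjusted p = 0.0269). Fbxo32, which encodes the ubiquitin ligase atrogin-1, rose by 0.79 (SE 0.15, adjusted p = 0.0303). The other 6 were G6pc, Bbc3, Bcl2l11, Rbl2, Map1lc3b and Gabarapl1, with differences of 0.28 to 0.63. The direction of Bcl2l11 depended on the probe, since another of its probes gave -0.26.

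Several well-known FOXO targets did not pass by their brightest probe. Ppargc1a, a coactivator of gluconeogenesis, was at 0.27 (SE 0.07, adjusted p = 0.0654) and did not overlap between genotypes, while its other probe did pass at 0.36 (SE 0.06, adjusted p = 0.0237). Pdk4, which blocks pyruvate oxidation in fasting, was at 0.94 (SE 0.51, adjusted p = 0.262). It read 2.02 and 1.71 in C3aR-/- replicates 1 and 3 but 0.04 in replicate 2, which lay below all 3 WT values of 0.35, 0.08 and 0.53. The antioxidant genes Sod2 and Cat, chosen after their values were seen, were at -0.08 (SE 0.09) and -0.06 (SE 0.07), and Ccnd1, which FOXO factors repress, was at -0.61 (SE 0.16, adjusted p = 0.06). The counts and median of the list pool Ccnd1 with induced genes. Another cyclin gene of the list, Ccnd2, did not pass, and its dimmer probes were at -0.03 and 0.01. Trim63 and Tnfsf10 read lower in C3aR-/- cortex without overlap, at -0.47 and -0.25 (adjusted p = 0.0683 and 0.0794). Their direction depended on the probe, since others read 0.58 and -0.24 for Trim63 and 0.28 for Tnfsf10.

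The array of C3aR-/- replicate 2 was the lowest of its genotype for 8 of the 11 FOXO targets that rose, a pattern looked for after Irs2 and Pdk4 were seen. It was also the lowest for 7 of the 14 tested member probes, Irs2 among them, but not for Depp1, whose lowest C3aR-/- array was replicate 1. No test was made of this, and how often replicate 2 was lowest over all tested probes was not counted. Its array also had the highest 75th percentile signal of the C3aR-/- arrays, 827 against 712 and 734. That percentile is subtracted from every level, and its part in the pattern was not tested. The pattern is not read as particular to these genes.

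**Figure D4:**
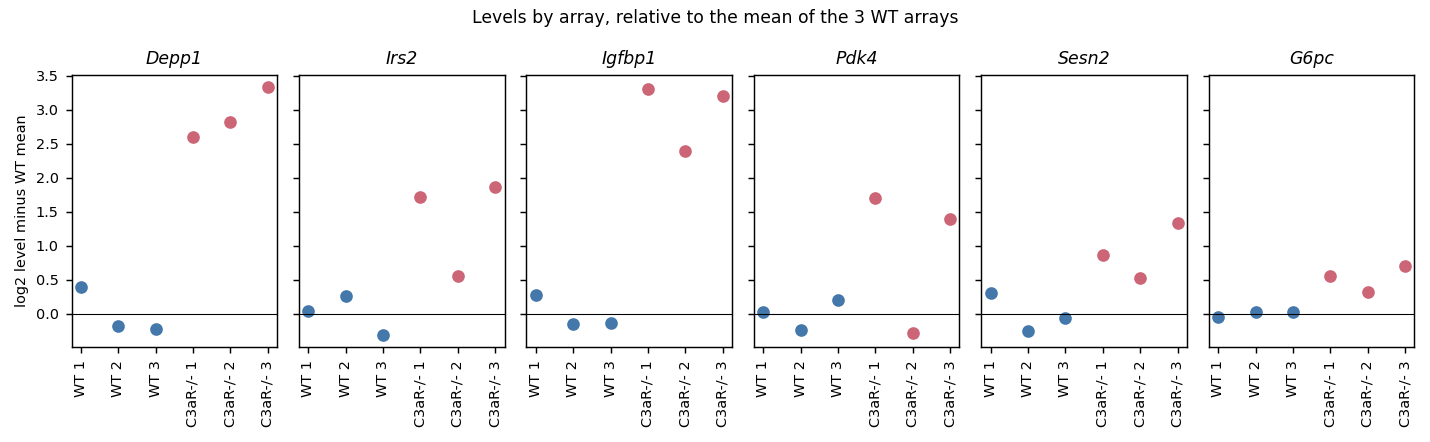
Level on each array relative to the WT mean (vertical axis, log2 units) for Depp1, Irs2 and 4 FOXO targets, with WT in blue and C3aR-/- in red. C3aR-/- replicate 2 is the lowest red point for Irs2, Igfbp1, Pdk4, Sesn2 and G6pc, and for Pdk4 it lies below the WT mean. The 4 targets were picked by hand, and Pdk4 and Sesn2 were not among the 11 called higher. Of those 11, replicate 2 was the lowest for 8 and replicate 1 for 3.

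Further genes of the insulin pathway are given list by list, with no test between lists. Of 20 tested receptor and adaptor genes, 2 rose, 1 fell and 17 did not pass (15% called). The median was 0.12. The 3 calls were 1, 1 and 1 without WT replicates 1 to 3, and 2, 1 and 0 without C3aR-/- replicates 1 to 3. Grb14, an inhibitor of the insulin receptor, rose by 0.51 (SE 0.07, adjusted p = 0.0131), and its other probes were at 0.32 and 0.65. Enpp1, also known as an inhibitor of the receptor, rose by 0.26 (adjusted p = 0.0486), and its other probe was at 0.12 (adjusted p = 0.39). Enpp1 was called in 4 of 15 other settings, and in 0 of the 6 without 1 array. Grb2, an adaptor towards RAS, fell by 0.44 (SE 0.10, adjusted p = 0.0392). Igf1r, the receptor of insulin-like growth factor 1, was at 0.27 (adjusted p = 0.175), and Insrr, the insulin receptor-related receptor, at 0.11 (adjusted p = 0.408).

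Of 34 genes from PI3K to mTORC1, 1 was called higher, 1 lower and 32 did not pass (5.88% called), with a median of 0.01. Deptor, an inhibitor of mTOR, rose by 0.34 (SE 0.07, adjusted p = 0.0373), and a further probe for it read 0.13. Pik3cb, a catalytic subunit of PI3K, was called at -0.25 (adjusted p = 0.0483), but its other probe was at 0.20, so no direction is given. The catalytic subunit genes Pik3ca and Pik3cd were at 0.08 and 0.41 and did not pass (adjusted p = 0.626 and 0.301). Of 25 genes whose products modify, bind or export FOXO proteins, 1 fell and 24 did not pass, with a median of -0.08. Both counts were 0 without any 1 of the 6 arrays. The one was Stk3, a Hippo pathway kinase, at -0.36 (SE 0.06, adjusted p = 0.0258). The fourth FOXO factor gene, Foxo6, was at 0.27 (adjusted p = 0.381), and the deacetylase gene Sirt1 at -0.01 (adjusted p = 0.941). The Sirt1 value depended on the probe, since its other probe was at 0.55 (SE 0.15, adjusted p = 0.0631).

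Partners of the sestrins sense energy and amino acids. Of 22 tested partners, 5 were called higher, 0 lower and 17 did not pass (22.7% called), with a median of 0.04. Wdr59 and Nprl2, subunits of the GATOR complexes that relay amino acid supply to mTORC1, rose by 0.55 (SE 0.08, adjusted p = 0.0174) and 0.41 (SE 0.09, adjusted p = 0.0359). Prkab1, a subunit of AMPK, rose by 0.44 (SE 0.08, adjusted p = 0.028) and the autophagy kinase gene Ulk1 by 0.32 (SE 0.07, adjusted p = 0.0372). Further probes for them read 0.42 and 0.73. Sqstm1, an autophagy receptor gene, was called at 0.40 (adjusted p = 0.0295) with its other probes at 0.37 and -0.13, so no direction is given. The AMPK catalytic subunit genes Prkaa1 and Prkaa2 were at -0.08 and 0.26 and did not pass (adjusted p = 0.439 and 0.0975). Their dimmer probes did pass, at -0.35 for Prkaa1 (SE 0.07, adjusted p = 0.0303) and 0.39 for Prkaa2 (SE 0.08, adjusted p = 0.0337). The count of this list was 0 or 1 without any 1 array: 1, 0 and 1 without WT replicates 1 to 3, and 1, 0 and 0 without C3aR-/- replicates 1 to 3.

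The last lists hold partners of Txnip and of Cited2. Of 17 thioredoxin and glucose-sensing genes, 1 fell and 16 did not pass (5.88% called), with a median of 0.03. The one was the glucose transporter gene Slc2a1, which fell by 0.51 (SE 0.08, adjusted p = 0.0191). Mlx and Mlxip, partners in the glucose-sensing factor that raises Txnip, were at -0.14 and 0.25 (adjusted p = 0.277 and 0.0809), and a second Mlx probe was at 0.44 (adjusted p = 0.324). Dimmer probes of Arrdc4 and Txnrd2 did pass, at 0.53 and 0.41 (adjusted p = 0.0246 and 0.0247), and a further Txnrd2 probe was at 0.07. The Slc2a1 call was lost without WT replicates 2 and 3 and without C3aR-/- replicates 2 and 3. Of 13 genes of the CITED family and its HIF and AP-2 partners, 1 rose and 12 did not pass (7.69% called), with a median of 0.06. Smad3 rose by 0.26 (SE 0.06, adjusted p = 0.0405), while Cited1 and Cited4 were at 0.52 and 0.26 (adjusted p = 0.0912 and 0.309). The Smad3 call was lost without any 1 of the 6 arrays.

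**Figure D5:**
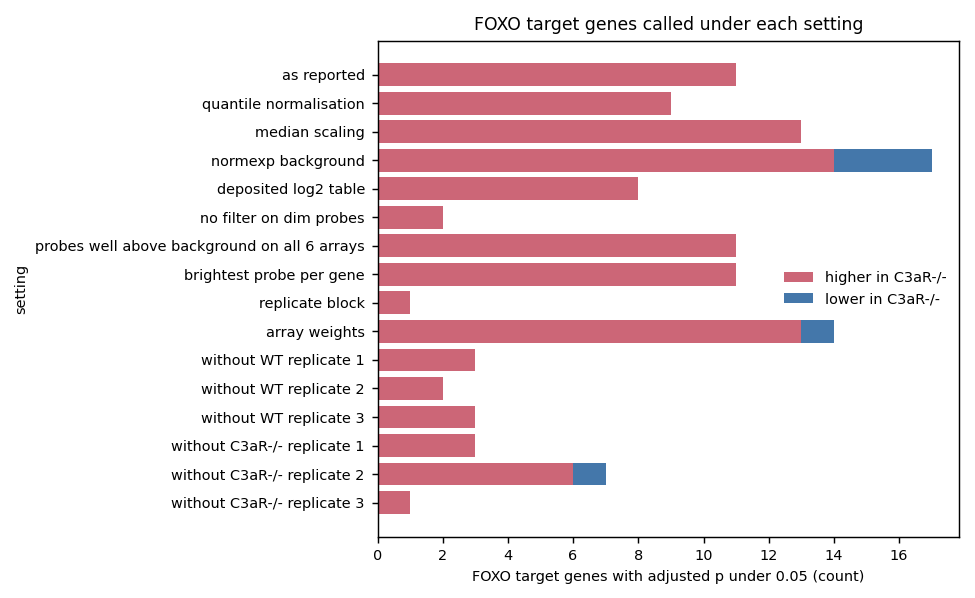
Number of FOXO target genes with an adjusted p under 0.05 (horizontal axis) under each setting, higher in C3aR-/- in red and lower in blue. The count is 11 as reported and runs from 1 to 17 over the other settings.

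Markers of the cortex and of other cell types were read on the same arrays in 15 lists. The summed level was higher on every C3aR-/- array than on every WT array in 5 lists, lower in 4, and overlapped in 6. All 8 proximal tubule markers were well above background on all 6 arrays, and their summed level was 9.23 to 9.35 in WT and 9.45 to 9.49 in C3aR-/- cortex, with Slc5a2 called higher and 0 lower. The 8 endothelial markers summed to 5.59 to 5.73 in WT and 5.60 to 5.71 in C3aR-/- cortex, with 2 called higher and 1 lower. The 3 principal cell markers of the collecting duct summed to 4.96 to 4.99 and 5.21 to 5.41, with Aqp2 and Aqp3 called higher. Of 7 B cell and plasma cell markers 3 were called lower, and the sum was 1.67 to 2.14 in WT and -0.23 to -0.04 in C3aR-/- cortex, while Cd79a was never well above background. Adipoq, Plin1 and Retn, 3 of the 6 fat cell markers, were never well above background either, and for the 6 the sum was 2.76 to 3.08 and 3.18 to 3.38. Nearly all of that sum was Fabp4, at 2.71 to 3.05 in WT and 3.15 to 3.36 in C3aR-/- cortex, which did not pass (limma adjusted p = 0.0997). Lep was at -0.20, and Cidec was well above background on 3 arrays. Podocyte markers summed to 3.89 to 4.19 in WT and 4.23 to 4.47 in C3aR-/- cortex, with Wt1 called higher, and intercalated cell markers to 4.78 to 4.82 and 4.89 to 4.93. The intercalated markers did not move together. Slc4a1 was called lower at -0.51 (limma adjusted p = 0.0331), while Slc26a4 and Atp6v1b1 were at 0.18 and 0.29. Macrophage markers summed to 3.74 to 4.13 in WT and 3.53 to 3.72 in C3aR-/- cortex, with Cd68 called lower. Distal convoluted tubule markers summed to 3.91 to 4.03 and 3.78 to 3.88, and skeletal muscle markers to -3.31 to -2.02 and -3.79 to -3.47. The muscle sums rest on dim probes. Ckm was well above background on 1 array, reading -2.71 in WT replicate 2, and Acta1 on 2 arrays. Myh4, the only muscle marker tested, was at -0.09 (limma adjusted p = 0.633). Of the distal convoluted tubule markers only Pvalb was lower, and it was called at -0.47 (limma adjusted p = 0.0327). Slc12a3 and Trpm6 were at 0.23 and 0.19. The sums overlapped for the thick ascending limb, mesangial and smooth muscle, T cell, hepatocyte and adrenal cortex lists, as for the endothelial one. The part of these cell types in the values above was not tested.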

How the data were processed

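Per the labels' protocols, cRNA labelled with Cy3 was made from 0.2 µg of RNA. The deposited scanner files hold spot intensity values (processed signal, mean and background) from Agilent Feature Extraction 10.7.1.1, per the file headers and the submitters' processing notes. The authors also deposited a table of log2 values, which shared a median of 5.38 on every array and served as an alternative. The sources used here do not give its normalisation.

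The log2 processed signal minus each array's 75th percentile was averaged per probe, without control and outlier spots. This left out 106 probes. Differences were fitted with limma 3.58.1 in R 4.3.3 (two-sided, Benjamini-Hochberg over 30930 probes, threshold 0.05), and the fit was tested on simulated data. Coordinates are mm9, as the array files give them, and exon annotation of that build was not used here. Symbols came from RefSeq (GRCm38.p6), which matched 32994 probes. The members, the 7 lists, the motifs and the naming rule were chosen with earlier results of these data known. The rule named every member, up to 5 called genes of each list by smallest p, the first 2 of each list that did not pass, and the 5 genes nearest to Depp1. The number of arrays limits the precision.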

Additional observations from a re-analysis of the deposited data

How the results depend on the processing

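Every other setting was planned. The Depp1 difference of 2.92 was 2.46 with normexp and 2.40 in the deposited log2 table, and 2.71 to 3.12 without 1 array. In each change of processing that could be run for a member probe, its difference kept its sign. With the brightest probe per gene 5 of the 14 were not fitted, and with probes above background on all 6 arrays 1 was not. Calls over all probes, 3612 as reported with 53.0% higher, were 67.6% higher under median scaling (2662 higher, 1274 lower). They numbered 927 when dim probes were tested too (42.2% higher), 594 with the replicate block (40.1% higher), and 649 to 1894 without 1 array. Of the calls without 1 array, 51.4%, 42.8% and 45.4% were higher without WT replicates 1 to 3, and 40.5%, 47.3% and 36.5% without C3aR-/- replicates 1 to 3. Without 1 array the counts were 1 to 7 for FOXO targets (11 as reported), 0 to 2 for receptors and adaptors, 0 for PI3K to mTORC1, FOXO regulators and CITED partners, and 0 to 1 for sestrin partners and glucose-sensing genes. FOXO targets numbered 17 with normexp (14 higher, 3 lower), 2 without the filter and 1 with the replicate block. Receptors and adaptors numbered 1 without the filter and 0 with the block. PI3K to mTORC1 genes numbered 1 under median scaling and in the deposited table, and 0 without the filter and with the block. FOXO regulators numbered 2 under quantile normalisation, in the deposited table and with probes above background on all 6 arrays, 3 with the brightest probe per gene, 4 with normexp and array weights, and 0 under median scaling, without the filter and with the block. Sestrin partners numbered 3 in the deposited table and 0 without the filter and with the block, as did, at 0, the glucose-sensing and CITED lists. Deviations of arrays with the same number correlated at 0.04, 0.01 and -0.06, so the numbers were not taken as pairs. The cause of the other shifts was not tested.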
